A study of Rattus norvegicus with 24 samples.

Results

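The liver makes the amino acids serine and asparagine and secretes the hormone FGF21, and 4 genes stand for these functions here: Phgdh, Psat1, Asns and Fgf21. They were chosen by name: every array probe that carried one of the symbols, an older symbol or the RefSeq record of the gene was taken. This gave 12 of 21900 probes, 3 for each gene, and 4 of the 11484 genes tested. All 12 probes passed the filter on low signals. Each gene is represented by its brightest probe, which lay well above background in both dyes on all 24 arrays and was saturated on none.

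PHGDH diverts a glycolytic intermediate into serine synthesis, PSAT1 adds the amino group from glutamate in the next step, and PSPH removes the phosphate in the last one. ASNS makes asparagine from aspartate with glutamine as the nitrogen donor. When amino acids run short or unfolded protein accumulates, kinases phosphorylate eIF2alpha and the transcription factor ATF4 is translated. ATF4 is known to bind composite C/EBP-ATF sites and to raise the transcription of genes of serine synthesis, of Asns and of Fgf21. In fasting liver the nuclear receptor PPARalpha also drives Fgf21, whose product acts on other organs through FGF receptors and the co-receptor beta-Klotho.

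The 24 animals were male F344 rats, an inbred laboratory strain, 5 weeks old per the labels, gavaged daily for 28 days with 1 of 6 compounds in 5 ml per kg. The design names as carcinogens hexachloroethane (500 mg/kg/day), 1,2,3-trichloropropane (50), 1-amino-2-methylanthraquinone (150) and 3-(4-chlorophenyl)-1,1-dimethylurea, commonly called monuron (250), and as non-carcinogens 1,2-dichlorobenzene (300) and tetracycline hydrochloride (1000), each in 4 rats. Corn oil carried all of these except tetracycline hydrochloride, which was dissolved in water. Each array set the RNA of 1 treated rat (Cy3) against RNA pooled from 4 rats given the vehicle (Cy5), so a log2 ratio above 0 means a higher signal in the treated rat. The dyes were never swapped, so a dye effect of a probe and a change common to all compounds cannot be told apart. The pool counts as 1 control sample: its own spread is left out, and the p-values are too small by an unknown amount.

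Between 61.3 and 73.2% of the probes of an array lay well above background for treated RNA and between 65.5 and 77.7% for pooled vehicle RNA. All 10 hepatocyte markers were above background on all 24 arrays in both dyes. Doses differed between compounds, and each compound lay on a slide of its own, so compound, dose and slide cannot be told apart. Tetracycline hydrochloride also differed from the other compounds in vehicle, which cannot be told apart from the compound. In whole tissue, a change in the share of a cell type and a change in RNA per cell cannot be told apart either.

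The array held 2 different 60-base sequences for each gene. They are shown for Asns, Psat1 and Fgf21, whose 2 sequences gave changes of the same direction but of different size. In each pair the sequence of the brightest probe comes first, 5′ to 3′. Capitals mark the stretch of 21 bases that the pair of Fgf21 shares, and the pairs of Asns and Psat1 share no stretch longer than 5 bases.
Asns, brightest: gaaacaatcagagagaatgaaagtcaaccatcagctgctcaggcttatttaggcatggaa
Asns, other: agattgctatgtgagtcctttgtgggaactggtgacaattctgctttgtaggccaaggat
Psat1, brightest: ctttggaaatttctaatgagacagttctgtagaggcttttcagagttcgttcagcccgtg
Psat1, other: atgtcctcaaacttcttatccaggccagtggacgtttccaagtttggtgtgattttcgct
Fgf21, brightest: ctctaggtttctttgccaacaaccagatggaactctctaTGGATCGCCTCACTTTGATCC
Fgf21, other: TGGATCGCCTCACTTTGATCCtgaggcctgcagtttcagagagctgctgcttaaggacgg

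The promoters were searched because the 4 genes are known targets of ATF4. The windows held 300 bases each (GRCr8), and 4 motifs were searched on both strands. For Fgf21 and Phgdh they ran from 250 bases before to 50 bases after the gene start in RefSeq. Those of Asns (chr4:36769366-36769665) and Psat1 (chr1:222645359-222645658) lay within the gene. On the minus strand these genes start at 36769970 and 222646187 in RefSeq, and the region around that start was not searched for them. TGATGNAA, the composite C/EBP-ATF motif, occurred in 3.98% of 33469 promoters of this length, and its form TGATGCAA, whose matches are all matches of TGATGNAA too, in 0.795%. TGACNNNGC, the core of the antioxidant response element, occurred in 12.1% and TGACGTCA, the cAMP response element, in 1.83%. The Fgf21 window held TGATGCAA on the strand opposite the gene, 143 bases before the start, and the Phgdh window held TGACNNNGC on the opposite strand, 20 bases after the start. The Asns and Psat1 windows held none of these letters, which describes only these windows. The 2 windows with a match are given in the direction of the gene, with the matched letters in capitals.
Fgf21, chr1:105221327-105221626, minus strand, GRCr8: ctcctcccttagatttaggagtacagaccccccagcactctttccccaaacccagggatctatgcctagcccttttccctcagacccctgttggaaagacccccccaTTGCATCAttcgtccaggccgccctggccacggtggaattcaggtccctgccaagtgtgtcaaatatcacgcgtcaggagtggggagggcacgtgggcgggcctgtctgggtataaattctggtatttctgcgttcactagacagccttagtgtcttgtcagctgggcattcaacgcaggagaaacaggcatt
Phgdh, chr2:188624740-188625039, minus strand, GRCr8: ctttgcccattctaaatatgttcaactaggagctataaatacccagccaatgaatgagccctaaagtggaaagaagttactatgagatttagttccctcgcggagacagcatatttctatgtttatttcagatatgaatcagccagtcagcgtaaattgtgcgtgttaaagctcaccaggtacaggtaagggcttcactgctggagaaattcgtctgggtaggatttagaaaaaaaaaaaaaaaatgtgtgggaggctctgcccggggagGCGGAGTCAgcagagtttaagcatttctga

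The first question was whether each compound changed the 4 genes against its vehicle. All 4 were called higher under 1,2,3-trichloropropane and under 1,2-dichlorobenzene, Asns and Phgdh under hexachloroethane, and Asns alone under monuron. None was called under 1-amino-2-methylanthraquinone or tetracycline hydrochloride. A gene was called at a limma adjusted p under 0.05 over all 11484 genes and a change of at least 2-fold. By the same limits the share of all genes called, with the share called higher after it, was 0.923% and 0.488% for hexachloroethane, 0.914% and 0.296% for 1,2,3-trichloropropane, 2.13% and 1.26% for 1-amino-2-methylanthraquinone, 1.41% and 0.749% for monuron, 1.6% and 0.792% for 1,2-dichlorobenzene, and 0.287% and 0.157% for tetracycline hydrochloride. Errors after ± are SDs of 4 rats throughout. The limma tests pooled the error of each gene over all compounds. Their p-values therefore do not measure the spread of a single group.

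**Figure D1:**
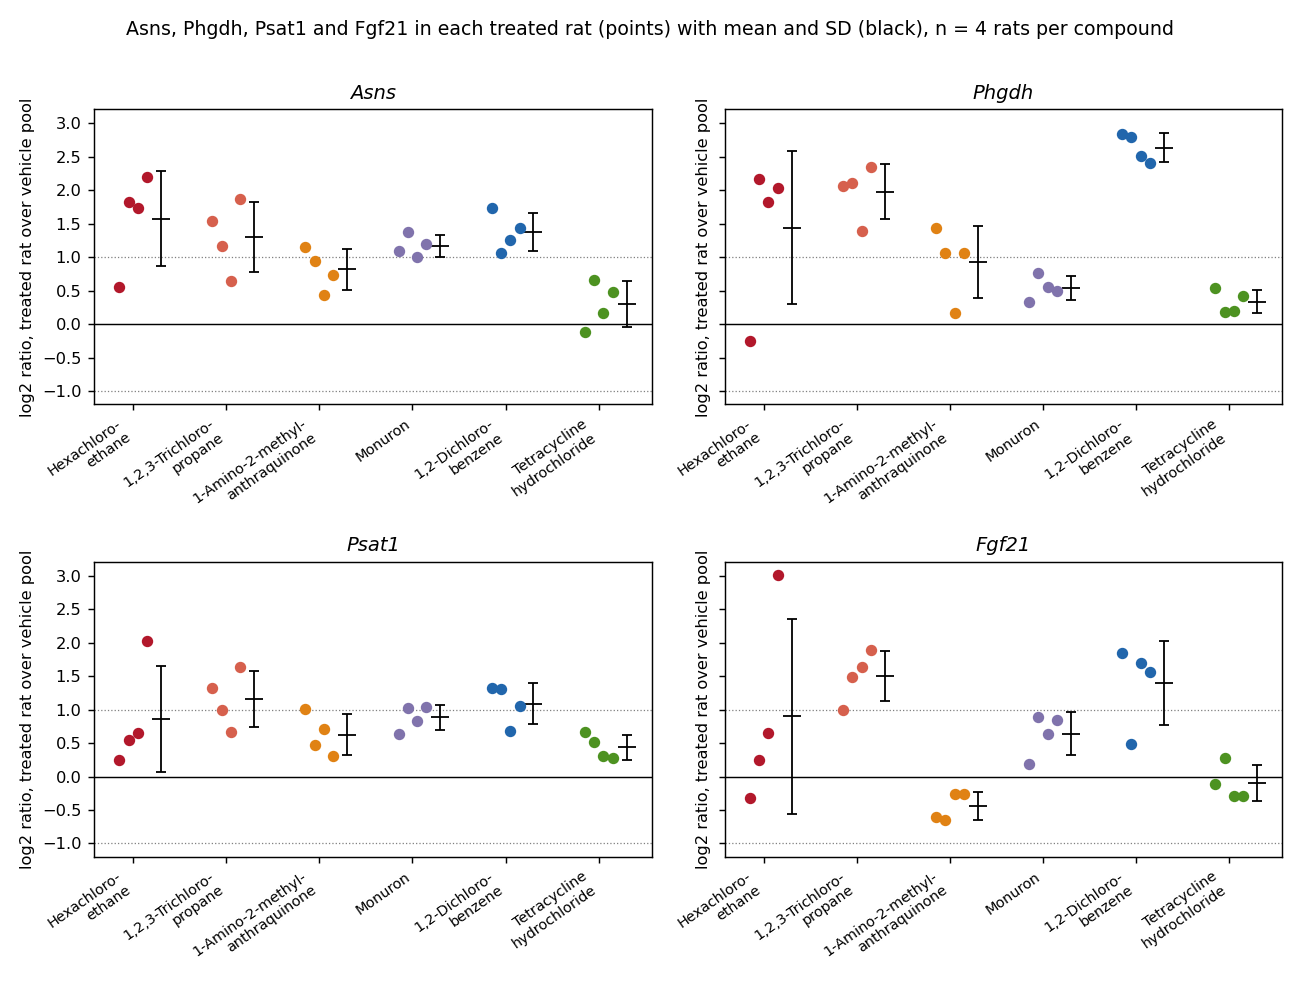
Each point is the log2 ratio of 1 treated rat over its vehicle pool for Asns, Phgdh, Psat1 or Fgf21 (brightest probe), by compound, with the mean and SD of 4 rats in black and dotted lines at 2-fold. Phgdh lay between 2.40 and 2.84 in the 4 rats given 1,2-dichlorobenzene, and Fgf21 lay below 0 in the 4 rats given 1-amino-2-methylanthraquinone.

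Phgdh, the entry step of serine synthesis, had the largest mean change of the 4 genes. Under 1,2-dichlorobenzene its log2 ratios over vehicle were 2.84, 2.80, 2.51 and 2.40, a mean of 2.64 ± 0.21 or 6.23-fold (limma adjusted p = 4.26e-08). Under 1,2,3-trichloropropane they were 2.06, 2.11, 1.39 and 2.35, a mean of 1.98 ± 0.41 or 3.94-fold (limma adjusted p = 4.13e-06). In the order of all 11484 genes by mean log2 ratio, highest first, Phgdh stood at place 7 for 1,2-dichlorobenzene and at place 9 for 1,2,3-trichloropropane.

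The rats given hexachloroethane varied widely in Phgdh. Their log2 ratios were -0.25, 2.17, 1.82 and 2.03, so that 3 rats lay close together and rat 1 lay below its vehicle pool. The mean was 1.44 ± 1.14 or 2.72-fold (limma adjusted p = 0.000136), and it was not called with median centring (0.87) or when hexachloroethane was fitted alone. Under 1-amino-2-methylanthraquinone the ratios were 1.43, 1.07, 0.17 and 1.06, and the mean of 0.93 ± 0.54 passed the adjusted p (0.00416, limma) but not the 2-fold limit. It was 1.19 and called without rat 3.

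Monuron and tetracycline hydrochloride gave the lowest Phgdh ratios. They were 0.33, 0.76, 0.56 and 0.49 for monuron (mean 0.54 ± 0.18, limma adjusted p = 0.0966) and 0.54, 0.19, 0.19 and 0.42 for tetracycline hydrochloride (mean 0.33 ± 0.18, limma adjusted p = 0.331). All 8 of these rats lay above 0, and neither mean passed the test in the main fit. Over the alternative settings the limma adjusted p ran from 0.00196 to 0.486 for monuron. For tetracycline hydrochloride it ran from 0.0227 to 0.614, and neither mean was called under any setting. The 4 rats given 1,2-dichlorobenzene did not overlap with the 20 rats of the other 5 compounds, whose highest ratio was 2.35. Such a gap, with the 4 rats of 1,2-dichlorobenzene above the other 20, was present for 266 of 11484 genes (2.32%).

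Of the 4 genes, Asns was called under the most compounds, 4 of 6. Under hexachloroethane its log2 ratios were 0.56, 1.82, 1.74 and 2.19 (mean 1.58 ± 0.71, 2.99-fold, limma adjusted p = 2.07e-06). Under 1,2-dichlorobenzene they were 1.73, 1.07, 1.25 and 1.44 (mean 1.37 ± 0.28, 2.59-fold, limma adjusted p = 7.7e-06). The vehicle log2 signal on the array of rat 2 was 10.75, against 10.01, 10.03 and 10.02 for rats 1, 3 and 4. Under 1,2,3-trichloropropane they were 1.54, 1.17, 0.64 and 1.86 (mean 1.30 ± 0.53, 2.47-fold, limma adjusted p = 2.42e-05). In these groups every rat lay above its vehicle pool. The mean under 1,2,3-trichloropropane was 0.87 and not called when arrays were centred on their medians instead of scaled by loess.

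Under monuron the Asns ratios were 1.10, 1.38, 1.00 and 1.20, the tightest group of the 6 for this gene (mean 1.17 ± 0.16, 2.25-fold, limma adjusted p = 7.04e-05). This call was lost with median centring (0.79), without background subtraction (0.95) and with the mean over probes (0.94). Under 1-amino-2-methylanthraquinone they were 1.15, 0.95, 0.44 and 0.73 (mean 0.82 ± 0.30, limma adjusted p = 0.0014), below the 2-fold limit. Under tetracycline hydrochloride they were -0.11, 0.66, 0.16 and 0.48 (mean 0.30 ± 0.34, limma adjusted p = 0.255). Of the 24 rats, 23 lay above 0. Among all genes, 14 (0.122%) were called higher under exactly 4 compounds, 10 under 5 and 1 under all 6.

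Psat1 lay above vehicle in all 24 rats, with smaller mean changes than Phgdh under 1,2-dichlorobenzene and 1,2,3-trichloropropane. As the dyes were not swapped, this shared sign cannot be told apart from a dye effect of the probe. Under 1,2,3-trichloropropane its log2 ratios were 1.33, 1.00, 0.66 and 1.64 (mean 1.16 ± 0.42, 2.23-fold, limma adjusted p = 7.77e-05). Under 1,2-dichlorobenzene they were 1.33, 1.31, 0.67 and 1.05 (mean 1.09 ± 0.30, 2.13-fold, limma adjusted p = 9.61e-05). The call under 1,2,3-trichloropropane was lost without rat 4, where the mean was just under the limit of 1. Without background subtraction both means fell short of it, at 0.57 and 0.54 for 1,2,3-trichloropropane and 1,2-dichlorobenzene. With the mean over the kept probes of the gene they were 0.88 and 0.80, and neither was called.

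The other 4 compounds left Psat1 below the 2-fold limit. Monuron gave 0.64, 1.03, 0.82 and 1.05 (mean 0.89 ± 0.19, limma adjusted p = 0.001; 1.37 and called with the scanner's log ratio), and hexachloroethane gave 0.24, 0.55, 0.65 and 2.03 (mean 0.87 ± 0.79, limma adjusted p = 0.00126). 1-Amino-2-methylanthraquinone gave 1.01, 0.47, 0.71 and 0.31 (mean 0.63 ± 0.31, limma adjusted p = 0.00966). Tetracycline hydrochloride gave 0.67, 0.52, 0.30 and 0.28 (mean 0.44 ± 0.19, limma adjusted p = 0.0822). In the hexachloroethane group rat 4 stood far above the other 3.

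Fgf21 had both positive and negative means. Under 1,2,3-trichloropropane its log2 ratios were 0.99, 1.49, 1.64 and 1.89 (mean 1.50 ± 0.38, 2.84-fold, limma adjusted p = 0.000769). Under 1,2-dichlorobenzene they were 1.85, 0.48, 1.70 and 1.57 (mean 1.40 ± 0.62, 2.64-fold, limma adjusted p = 0.00107), with 3 rats close together and rat 2 lower. Without background subtraction these means were 0.82 and 0.89 and not called.

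Under hexachloroethane the Fgf21 ratios ran widely, with -0.32, 0.25, 0.65 and 3.01 (mean 0.90 ± 1.46, limma adjusted p = 0.0287), and rat 4 had the highest Fgf21 ratio of all 24 rats. Without that rat the mean was 0.20. Monuron gave 0.19, 0.90, 0.64 and 0.84 (mean 0.64 ± 0.32, limma adjusted p = 0.109). 1-Amino-2-methylanthraquinone gave -0.60, -0.64, -0.26 and -0.27, below vehicle in 4 of 4 rats, but the mean of -0.44 ± 0.21 did not pass the test (limma adjusted p = 0.248). Under the alternative settings the limma adjusted p of this mean ran from 0.0103 to 0.533, and it was never called. Tetracycline hydrochloride gave -0.11, 0.28, -0.29 and -0.28, on both sides of 0 (mean -0.10 ± 0.27, limma adjusted p = 0.834).

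The signals in the 2 dyes show how far treated rats and pools each varied. Phgdh had mean log2 signals of 13.3, 12.2, 11.9, 11.5, 10.4 and 8.86 in rats given 1,2-dichlorobenzene, hexachloroethane, 1,2,3-trichloropropane, then 1-amino-2-methylanthraquinone, monuron and tetracycline hydrochloride, against 10.6, 10.8, 9.93, 10.6, 9.86 and 8.53 in their vehicle pools. The water pool of tetracycline hydrochloride lay 1.83 below the mean of the corn oil pools for Phgdh (8.53 against 10.4) and 1.11 below it for Asns (8.86 against 9.96). For Psat1 and Fgf21 it lay 0.10 and 0.17 above.

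Across the 6 pool means the range was 2.27 on the log2 scale for Phgdh, wider than for 99.8% of genes, and 1.35 for Asns, wider than for 98.5%. It was 0.51 for Psat1, 0.53 for Fgf21 and 0.35 for the median gene. Vehicle, slide and pool differ together here, and their part in the low Phgdh and Asns signals of the tetracycline hydrochloride arrays was not tested. Fgf21 had a mean log2 signal of 7.65 under 1-amino-2-methylanthraquinone, against 8.09 in its vehicle pool.

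**Figure D2:**
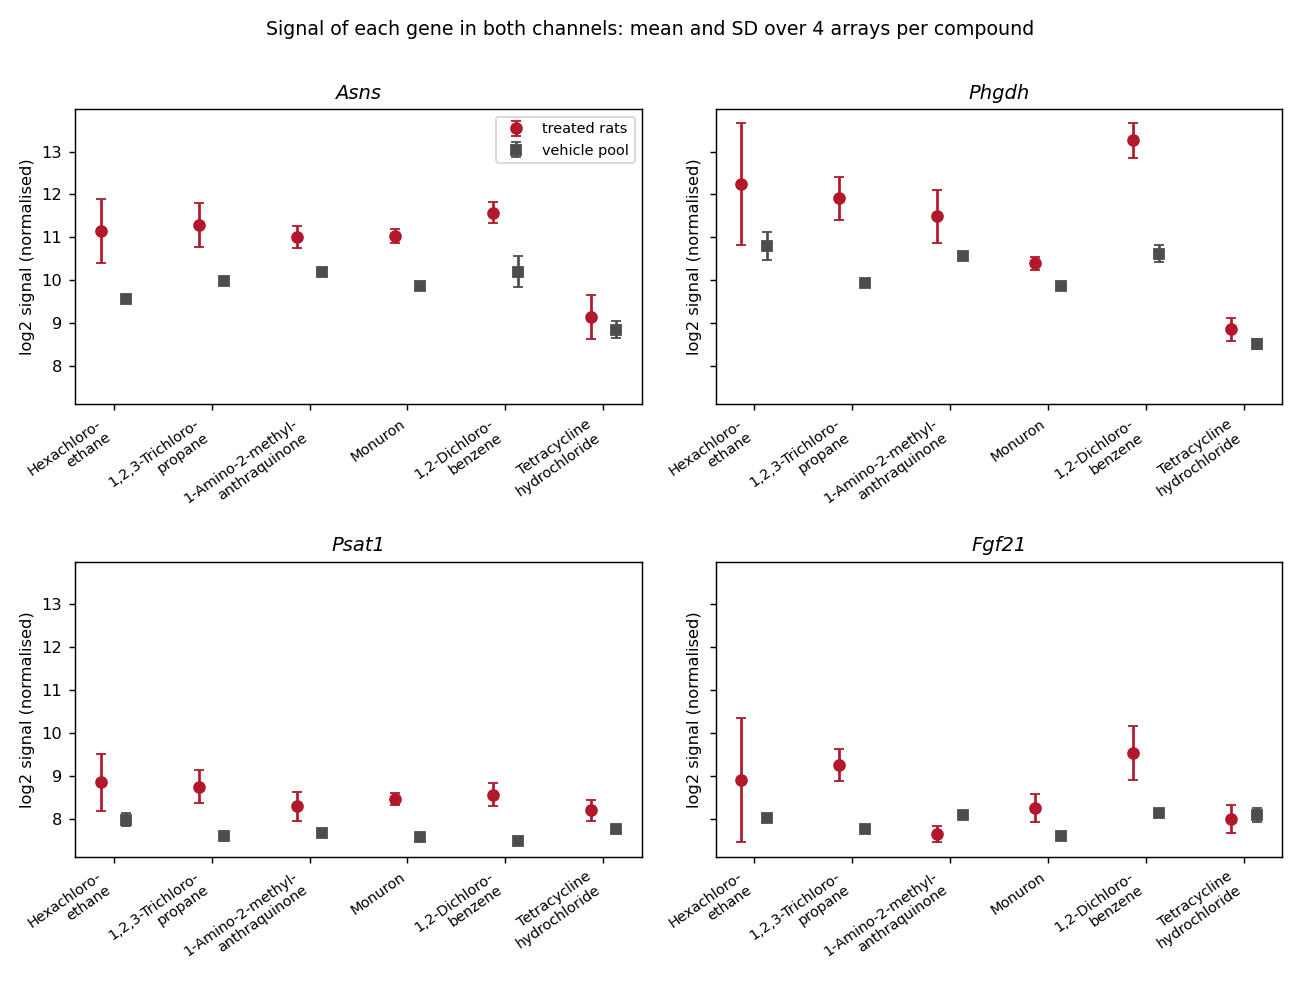
Mean normalised log2 signal of each gene in the treated rats (circles) and in the vehicle pool on the same arrays (squares), by compound, with the SD over 4 arrays. The vehicle signals of Phgdh and Asns were lowest on the tetracycline hydrochloride arrays, where the pool was from rats given water, at 8.53 and 8.86.

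The probes with the other sequence gave the same sign as the brightest probe in all 6 compounds for each of the 4 genes. The other Phgdh sequence, which shares 58 bases with the brightest one, had means of 1.51, 2.00, 0.94, 0.57, 2.70 and 0.32 for hexachloroethane, 1,2,3-trichloropropane, then 1-amino-2-methylanthraquinone, monuron, 1,2-dichlorobenzene and tetracycline hydrochloride, within 0.07 of the brightest probe. The other Fgf21 sequence gave 0.69, 1.00, -0.28, 0.31, 0.95 and -0.07 in the same order, up to 0.50 closer to 0. The other Asns sequence gave 0.65, 0.68, 0.63, 0.48, 0.88 and 0.03, up to 0.92 lower, and so stayed below 2-fold throughout.

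The other Psat1 sequence gave 0.33, 0.34, 0.15, 0.20, 0.22 and 0.04, up to 0.87 lower than the brightest probe. It lay well above background on 12 of 24 arrays for treated RNA and on 7 of 24 for vehicle RNA, so its ratios rest on weak signals. The Psat1 calls thus come from 1 of the 2 sequences on the array. In rats given hexachloroethane the wide spread of Fgf21 recurred with the other sequence, at -0.19, 0.11, 0.36 and 2.46.

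**Figure D3:**
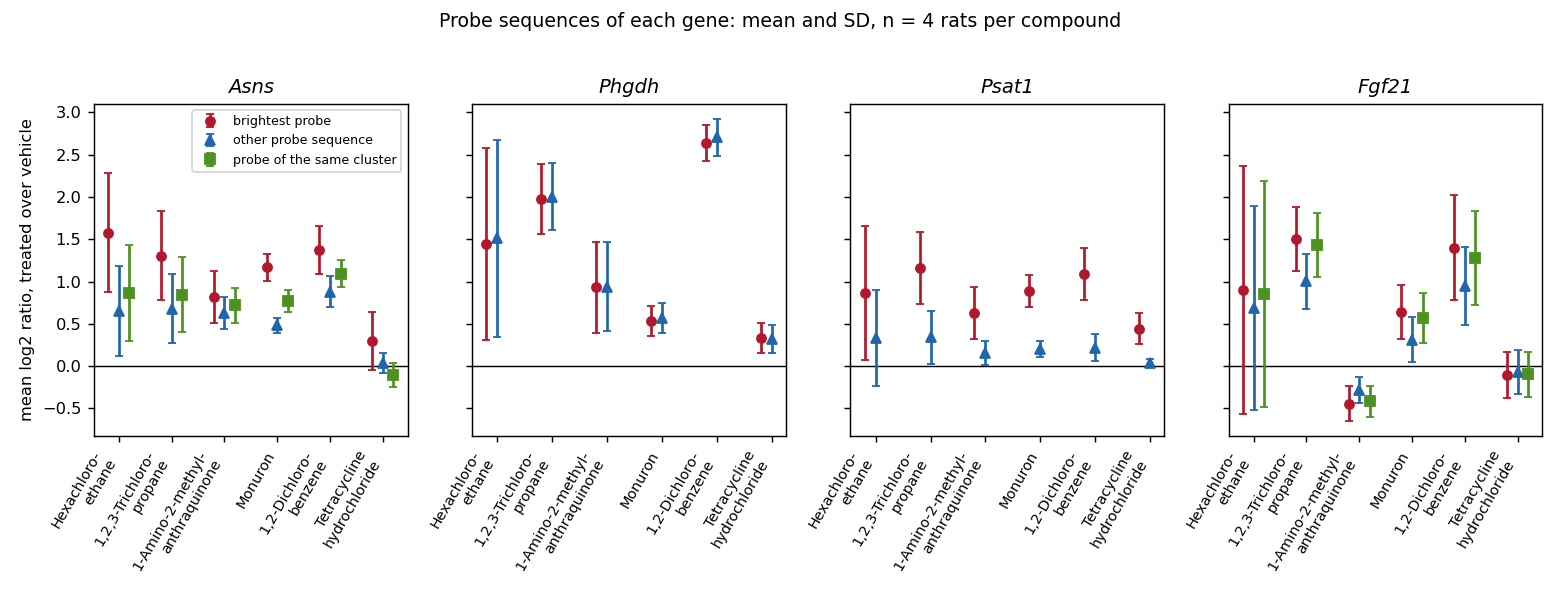
Mean log2 ratio over vehicle with SD (n = 4 rats) for the brightest probe, the other probe sequence and, for Asns and Fgf21, a probe of the same UniGene cluster that does not carry the gene's name. The sequences had the same sign in every compound except the Asns cluster probe under tetracycline hydrochloride, at -0.10 against 0.30 for the brightest probe, and the other Asns and Psat1 sequences gave the smaller changes.

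The second question was where a compound stood apart from the other 5. Of the 24 contrasts of a gene under 1 compound with its mean over the other 5, 4 were called. Phgdh was higher under 1,2-dichlorobenzene, by 1.59 on the log2 scale (SE 0.28, 2.64 against 1.04, limma adjusted p = 0.000246), where 0.522% of all genes were called. It was lower under tetracycline hydrochloride, with a difference of -1.17 (0.33 against 1.51, limma adjusted p = 0.00354), where 0.575% were called. The call for 1,2-dichlorobenzene was kept under all 13 alternative settings (1.45 to 1.75). The call for tetracycline hydrochloride was lost with median centring (-0.86) and without the rats numbered 2 (-1.03, limma adjusted p = 0.0532).

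Fgf21 was higher under 1,2,3-trichloropropane than under the other 5 by 1.02 (SE 0.35, 1.50 against 0.48, limma adjusted p = 0.0322), with 0.409% of all genes called there. This call was lost under 6 of the 13 settings. These were median centring (0.95), no background subtraction (0.48), the mean over kept probes (0.90), the other probe sequence (0.68) and leaving out the rats numbered 2 (0.95) or 3 (0.98). Fgf21 was lower under 1-amino-2-methylanthraquinone, with a difference of -1.31 (-0.44 against 0.87, limma adjusted p = 0.0042), with 1.3% of all genes called there. That call was lost without background subtraction (-0.72) and with the other probe sequence (-0.86). Asns under tetracycline hydrochloride passed the adjusted p but missed the 2-fold limit, with a difference of -0.95 (limma adjusted p = 0.00226). The background in the other contrasts was 0.644% for hexachloroethane and 0.61% for monuron, where none of the 4 genes was called.

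Between pairs of compounds, each of the 4 genes was compared 15 times, and 16 of the 60 comparisons were called, against 1.32% of the comparisons of all genes over the 15 pairs (0.462 to 2.01% in single pairs). Phgdh made 8 of these calls. It was higher under 1,2-dichlorobenzene than under tetracycline hydrochloride by 2.30, monuron by 2.10, 1-amino-2-methylanthraquinone by 1.71 and hexachloroethane by 1.20 (limma adjusted p = 0.0166 for the last). It was higher under 1,2,3-trichloropropane than under tetracycline hydrochloride by 1.64, monuron by 1.44 and 1-amino-2-methylanthraquinone by 1.05, and higher under hexachloroethane than under tetracycline hydrochloride by 1.11 (limma adjusted p = 0.0407). The difference between 1,2-dichlorobenzene and hexachloroethane rested on the rats numbered 1, and without them it was 0.56 and not called. That between hexachloroethane and tetracycline hydrochloride was not called with median centring (0.69), with no filter on dim probes, or without the rats numbered 2, 3 or 4 (0.82 to 0.94), and it was 1.74 without those numbered 1. The difference between 1,2,3-trichloropropane and monuron was not called without the rats numbered 2 or 4, nor was that between 1,2,3-trichloropropane and 1-amino-2-methylanthraquinone without those numbered 2, 3 or 4 or without background subtraction. The other 4 calls of Phgdh were kept under all 13 settings.

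Fgf21 made 5 of the calls. Its mean log2 ratio was higher than under 1-amino-2-methylanthraquinone by 1.95 for 1,2,3-trichloropropane, 1.85 for 1,2-dichlorobenzene and 1.34 for hexachloroethane (limma adjusted p = 0.0227 for the last), and higher than under tetracycline hydrochloride by 1.61 for 1,2,3-trichloropropane and 1.50 for 1,2-dichlorobenzene (limma adjusted p = 0.0129). Asns made 3 calls, each over tetracycline hydrochloride, the only compound given in water. They were 1.28 for hexachloroethane, 1.08 for 1,2-dichlorobenzene and 1.01 for 1,2,3-trichloropropane (limma adjusted p = 0.0088 for the last). No pair was called for Psat1. Among the Fgf21 calls, those of 1,2,3-trichloropropane and 1,2-dichlorobenzene over 1-amino-2-methylanthraquinone were kept under all 13 settings. That of hexachloroethane was lost without the rats numbered 4, where the difference was 0.70 (limma adjusted p = 0.116), and under 4 other settings (no background subtraction, the other probe sequence and without the rats numbered 2 or 3). Both Fgf21 calls over tetracycline hydrochloride were lost without background subtraction or without the rats numbered 3, and that of 1,2-dichlorobenzene also without those numbered 1. All 3 Asns calls were lost with median centring and with the other probe sequence. Those of 1,2-dichlorobenzene and 1,2,3-trichloropropane were lost too with the series table, without background subtraction and without the rats numbered 1, and that of 1,2,3-trichloropropane also with the mean over kept probes and without those numbered 4.

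Ordered from the highest mean, Asns ran from hexachloroethane through 1,2-dichlorobenzene, 1,2,3-trichloropropane, monuron and 1-amino-2-methylanthraquinone to tetracycline hydrochloride. Phgdh ran from 1,2-dichlorobenzene through 1,2,3-trichloropropane, hexachloroethane, 1-amino-2-methylanthraquinone and monuron to tetracycline hydrochloride. No 2 neighbours in the order of any of the 4 genes were called as different. Psat1 began with 1,2,3-trichloropropane, and its neighbours lay between 0.02 and 0.24 apart. Fgf21 began with 1,2,3-trichloropropane and 1,2-dichlorobenzene and ended with 1-amino-2-methylanthraquinone.

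The chlorinated compounds with the most calls, 1,2-dichlorobenzene and 1,2,3-trichloropropane, were given at different doses (300 and 50 mg/kg/day), so dose and compound cannot be told apart in their values. The mean log2 ratios were 2.64 and 1.98 for Phgdh, 1.37 and 1.30 for Asns, 1.09 and 1.16 for Psat1, and 1.40 and 1.50 for Fgf21. The 95% interval of the Phgdh difference ran from -0.10 to 1.42. For Asns it ran from -0.52 to 0.65, and these intervals do not show that the compounds act alike.

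Scan day could be held constant for 2 pairs, of which the first differed in vehicle, corn oil against water. The water pool had lower mean log2 signals than the corn oil pools, 8.53 against 10.4 for Phgdh and 8.86 against 9.96 for Asns. Vehicle and compound cannot be told apart in the first pair. Hexachloroethane and tetracycline hydrochloride were scanned on day 1, and there Asns and Phgdh were called higher under hexachloroethane (0.819% of all genes were called), while Psat1 (0.42, limma adjusted p = 0.314) and Fgf21 (1.00, limma adjusted p = 0.138) were not. 1,2-Dichlorobenzene and monuron were scanned on day 4, and there Phgdh alone was called, higher by 2.10 under 1,2-dichlorobenzene (0.975% of all genes were called).

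The third question was whether the 4 carcinogens differed from the 2 non-carcinogens. The class means were 1.22 and 0.83 for Asns, 1.22 and 1.49 for Phgdh, 0.88 and 0.77 for Psat1, and 0.65 and 0.65 for Fgf21, carcinogens first. Two-sided exact permutation tests over the 15 ways to split 6 compounds gave p = 0.467 for Asns, p = 0.733 for Phgdh, p = 0.733 for Psat1 and p = 1 for Fgf21, and the smallest p this design allows is 0.0667. The non-carcinogens held the compound with the highest Phgdh mean and the one with the lowest. Across all genes 0 (0%) were called by limma with compound as a random block, and 190 of 11484 had an unadjusted p under 0.05.

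Single rats ranked alike across the 4 genes within some groups. Rat 1 of hexachloroethane was the lowest of its group for all 4 genes, rat 4 of 1,2,3-trichloropropane and rat 1 of 1,2-dichlorobenzene were the highest for all 4. For Asns under 1,2-dichlorobenzene this order depended on the vehicle signal. Rat 2 had the higher treated log2 signal (11.82 against 11.74 for rat 1), but the vehicle signal on its array was 10.75 against 10.01. The SDs of the 4 genes under hexachloroethane were wider than those of at least 99.2% of all genes, whose median SD was 0.102. Without rat 1, Psat1 (1.07) and Fgf21 (1.30) were called as well. Rat 4 stood highest in both, at 2.03 and 3.01, while rats 2 and 3 were at 0.55 and 0.65 for Psat1. For Fgf21 those rats were at 0.25 and 0.65, and this gene was also called without the rats numbered 2.

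The mean over the 21 ATF4 targets was 0.01, 0.14, 0.12 and 0.43 in the hexachloroethane rats, so rat 4 was highest there too. The mean of the adipocyte markers Fabp4 and Cidea in the same rats was 0.11, -0.05, -0.05 and 1.64, and that of 6 Kupffer cell and macrophage markers was -0.67, -0.28, 0.32 and -0.07. The part of these cell types in the rat-to-rat differences was not tested.

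**Figure D4:**
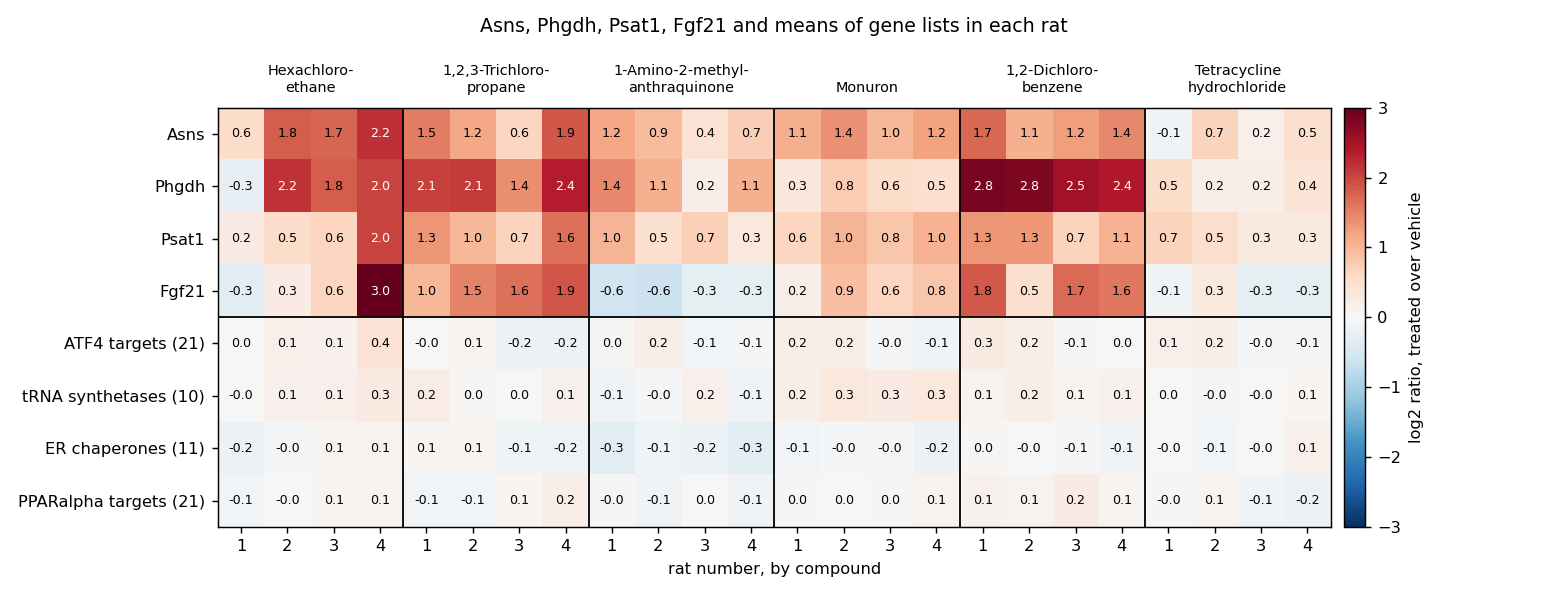
Log2 ratio over vehicle in each of the 24 rats for Asns, Phgdh, Psat1 and Fgf21, above the mean over the tested genes of 4 lists, on a colour scale from -3 to 3. Rat 4 of hexachloroethane reached 3.01 for Fgf21 and 2.03 for Psat1, while the list means stayed between -0.33 and 0.43 in all 24 rats.

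As a description over 24 rats, which share slides and pools within a compound, Pearson's r of the log2 ratios was 0.75 between Psat1 and Fgf21, 0.71 between Asns and Phgdh, 0.70 between Asns and Psat1, 0.67 between Asns and Fgf21, 0.64 between Phgdh and Fgf21 and 0.62 between Phgdh and Psat1. After each compound's mean was subtracted, r was highest for Asns with Phgdh (0.79) and lowest for Phgdh with Fgf21 (0.36). Fgf21 was the gene most like Psat1 among 4688 other genes with a symbol. For Psat1, Asns stood at place 4 and Phgdh at place 17. For Fgf21, Psat1 stood at place 9, Asns at 60 and Phgdh at 96. For Asns, Phgdh stood at place 13, Psat1 at 16 and Fgf21 at 25. For Phgdh the other 3 were farther down, with Asns at place 67, Fgf21 at 150 and Psat1 at 181.

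The 5 genes most like each were taken by r over the same 24 rats. For Asns they were Unc45a (0.80), Dao (0.79), Slc6a9 (0.77), Mlycd (0.76) and Chrnb4 (0.74), among which Slc6a9, a glycine transporter, had a mean of 0.62 under hexachloroethane and -0.16 under tetracycline hydrochloride. For Phgdh they were Eef2 (0.83), Pold1 (0.83), Pck2 (0.82), Fkbp11 (0.82) and Dctn1 (0.81). Pck2, the mitochondrial PEP carboxykinase, had means of 0.67 under 1,2,3-trichloropropane and 0.56 under 1,2-dichlorobenzene. For Psat1 they were Fgf21 (0.75), Eif4ebp1 (0.74), Gars1 (0.71), Asns (0.70) and Chrnb4 (0.68). For Fgf21 they were Ncln (0.82), Ppp2r5d (0.81), Faah (0.81), Chrnb4 (0.81) and Angptl4 (0.80), a secreted lipase inhibitor that had a mean of -1.08 under 1-amino-2-methylanthraquinone.

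Psph, the last step of serine synthesis, was called under no compound. It had means of 0.10, 0.09, -0.26, 0.05, -0.04 and 0.16 for hexachloroethane, 1,2,3-trichloropropane, then 1-amino-2-methylanthraquinone, monuron, 1,2-dichlorobenzene and tetracycline hydrochloride. Of 23 listed genes that use serine or glycine or carry folate one-carbon units, 13 were tested and 1 was called, Sds. Sds, the serine dehydratase that degrades serine to pyruvate, fell under 5 compounds: -2.41 ± 0.25 for 1,2,3-trichloropropane, -2.25 ± 0.62 for 1-amino-2-methylanthraquinone, -1.69 ± 0.53 for monuron, -1.40 ± 0.77 for 1,2-dichlorobenzene and -1.31 ± 0.44 for hexachloroethane. Under tetracycline hydrochloride it was -0.91 ± 1.05 and missed the 2-fold limit. The share of all genes called lower was 0.435% for hexachloroethane, 0.618% for 1,2,3-trichloropropane, 0.871% for 1-amino-2-methylanthraquinone, 0.662% for monuron, 0.81% for 1,2-dichlorobenzene and 0.131% for tetracycline hydrochloride.

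Of 12 listed genes of asparagine and aspartate metabolism 10 were tested. Beside Asns, Glul, which makes glutamine from glutamate, fell under hexachloroethane (-1.21 ± 0.21). Got1, the cytosolic aspartate transaminase, fell under 1,2,3-trichloropropane (-1.57 ± 0.34) and monuron (-1.01 ± 0.31). The median over the 10 lay between -0.31 and -0.05, against -0.02 to -0.01 for all genes.

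Of 35 listed amino acid response genes other than the 4 here, 21 were tested, and 2 were called, each under 1 compound. Slc7a5, a subunit of a transporter of large neutral amino acids, rose under 1-amino-2-methylanthraquinone (1.09 ± 0.16), with means of 0.99 for monuron and 0.84 for 1,2-dichlorobenzene below the 2-fold limit. Cebpb, a partner of ATF4 on composite sites, fell under 1,2,3-trichloropropane (-1.01 ± 0.81). By the adjusted p alone, 8, 5, 6, 7, 7 and 2 of the 21 were higher for hexachloroethane, 1,2,3-trichloropropane, then 1-amino-2-methylanthraquinone, monuron, 1,2-dichlorobenzene and tetracycline hydrochloride, and 2, 6, 5, 3, 4 and 1 were lower. Of all genes, 18.7, 20.7, 27.7, 19.9, 25.2 and 15.7% were higher by this limit, and 24.7, 24.9, 31.1, 26.1, 26.6 and 21.7% were lower.

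The list medians were 0.09, -0.11, -0.09, 0.05, 0.02 and 0.12 in the same order. Ddit3, a gene of prolonged ATF4 signalling that encodes CHOP, lay between -0.20 and 0.02. Trib3, a pseudokinase and ATF4 target, had means of 0.74 for hexachloroethane and for 1,2-dichlorobenzene. Eif4ebp1, an inhibitor of cap-dependent translation, ran from 0.04 for tetracycline hydrochloride to 0.66 for 1,2,3-trichloropropane.

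**Figure D5:**
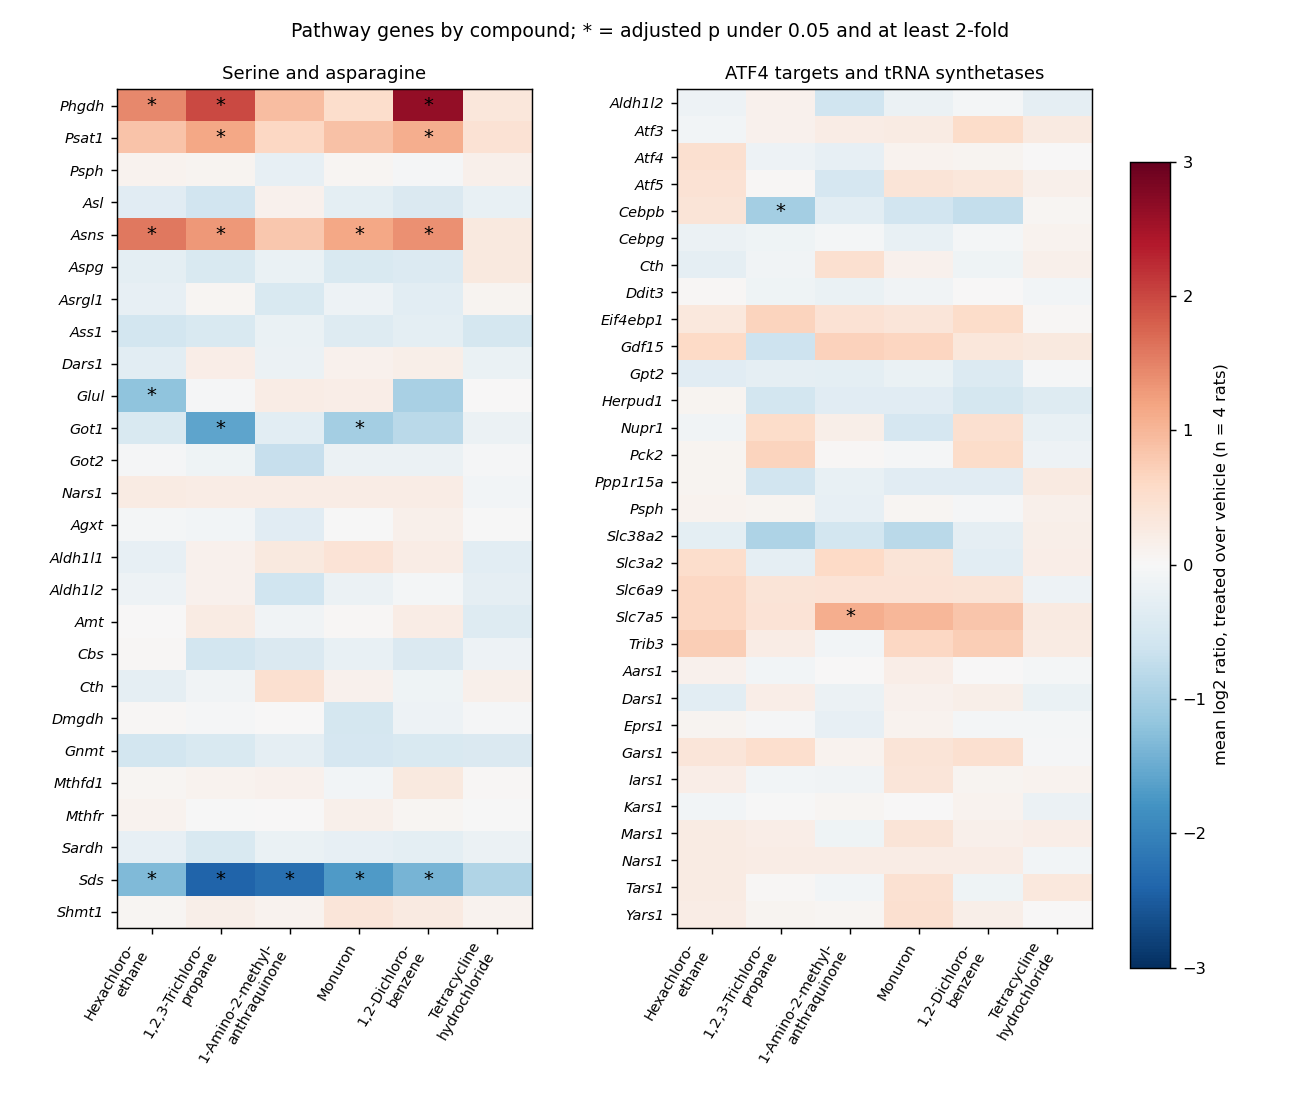
Mean log2 ratio over vehicle (colour, n = 4 rats) by compound for genes of serine and asparagine metabolism (left) and for ATF4 targets and aminoacyl-tRNA synthetases (right), with stars on genes at an adjusted p under 0.05 and at least 2-fold. Phgdh, Psat1 and Asns were the ones called higher on the left, Sds was called lower under 5 compounds, and on the right only Cebpb and Slc7a5 were called, at -1.01 and 1.09.

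Of 20 aminoacyl-tRNA synthetases, which load amino acids onto tRNAs, 10 were tested and 0 were called, while 6, 4, 1, 8, 6 and 2 were higher by the adjusted p alone in the same order of compounds. None of the 6 tested eIF2alpha kinases and phosphatase subunits was called. Of 15 ER chaperones and other unfolded protein response genes 11 were tested, and 1 was called: Xbp1, a transcription factor of that response, was lower under 1-amino-2-methylanthraquinone (-1.10).

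Of 5 listed genes for the FGF21 receptors and the co-receptor, 4 were tested and none was called. These were the receptor genes Fgfr1, Fgfr2, Fgfr3 and Fgfr4, and the co-receptor beta-Klotho was not tested. Of 26 PPARalpha targets 21 were tested. The fatty acid binding protein gene Fabp1 (-1.33) and Angptl4 (-1.08) fell under 1-amino-2-methylanthraquinone, and no other member was called under any compound. Among 8 growth hormone and IGF genes, Igfbp1 fell under 1,2,3-trichloropropane (-1.69), Igfbp3 under 1-amino-2-methylanthraquinone (-1.01) and Socs2 under 1,2-dichlorobenzene (-1.25).

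Of 15 carbohydrate response and lipogenesis genes 11 were tested. Me1, malic enzyme, rose under hexachloroethane (1.27) and 1,2-dichlorobenzene (1.47). G6pc1, glucose-6-phosphatase, fell under 1,2,3-trichloropropane (-1.21), 1-amino-2-methylanthraquinone (-1.55) and monuron (-1.11), and Fasn, fatty acid synthase, under 1-amino-2-methylanthraquinone (-1.07).

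Markers of other cells moved under some compounds. Under 1-amino-2-methylanthraquinone 6 of 7 bile duct markers were called higher (median 1.47, rat means between 1.21 and 1.80) and both tested adipocyte markers as well (median 1.26). Of all genes, 1.26% were called higher there. Under monuron all 3 erythroid markers tested were called higher (median 1.13), with Marco and Cidea, against 0.749% of all genes. The 10 hepatocyte markers had medians between -0.63 and -0.43 in the 6 compounds. In both 1,2-dichlorobenzene and monuron all 10 were lower by the adjusted p alone, against 26.6 and 26.1% of all genes. Most of the 10 were lower by this limit under each of the other compounds too, while Hpx was higher under 1-amino-2-methylanthraquinone (0.57). Of the hepatocyte markers, Serpina1 was called lower under 1,2,3-trichloropropane, Apoa2 under 1-amino-2-methylanthraquinone, and both under 1,2-dichlorobenzene, where the bile duct marker Cldn7 was called higher. The pancreatic acinar markers Cela3b and Cpa1 were never well above background. The part of these shifts in the changes of Asns, Phgdh, Psat1 and Fgf21 was not tested.

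None of the 8 stellate cell and fibrosis, 3 endothelial, 5 lymphocyte, 1 neutrophil or 3 skeletal muscle markers tested was called.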

How the data were processed

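Hybridisations of liver RNA from 24 treated rats against pooled vehicle RNA were used. The deposited scanner files gave each spot, for both dyes, a mean signal and a median local background as linear intensity, and the software's own log10 ratio (both per the file headers; Agilent Feature Extraction 9.1.3.1, per the submitters' processing notes). The deposited series table held log2 ratios. No array had its dyes swapped. Tetracycline hydrochloride had its own water pool, and whether the corn oil compounds shared pools is not given.

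Signals were corrected with normexp (offset 50) and loess within arrays in limma 3.58.1 (R 4.3.3), with control spots at weight 0. Outlier spots (0 to 74 per array) were removed, and the 2 copies of a probe averaged. A probe was kept where the 4 arrays of some compound all had it well above background in the same dye, which left 16085 of 21900. The brightest probe stood for each of 11484 genes. Names were updated with RefSeq's rat gene table through current symbols (6176 probes), older symbols (1918), RefSeq records (902) or gene IDs (621), and 12283 probes found no match.

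All 24 arrays were fitted together (18 residual degrees of freedom, 2.91 prior), with Benjamini-Hochberg adjustment over all genes. The classes were compared with compound as a random block (consensus correlation 0.58) and by exact permutation. Same-numbered rats of different compounds were not paired. Their deviations correlated between -0.26 and 0.39 (median 0.04), over 0.1 in 22 of 60 pairs. Those of differently numbered rats correlated between -0.47 and 0.36 (median -0.01), over 0.1 in 43 of 180 pairs. The fits were tested on simulated data with independent errors for each array. These data held no pool, slide or dye effect, so they cannot show how far the p-values are too small. The alternatives were 14 chosen with the design and 1, the other probe sequence, added after the data were seen. Rats were left out by number, the 1 with that number from each of the 6 compounds at once.

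The genes, lists and tests were chosen with earlier results of these data known. Named genes are the 4, the called members of each list (up to 4 per compound) and the 5 genes with the highest r over 24 rats. List members named without a call were picked after their values were seen. The lists cover serine synthesis, one-carbon use, asparagine and aspartate, ATF4 targets, tRNA synthetases, eIF2alpha kinases, ER chaperones, FGF21 receptors, PPARalpha targets, lipogenesis, IGF genes and cell type markers.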

Additional observations from a re-analysis of the deposited data

Results flagged for a closer look

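Rat 1 of the hexachloroethane group had a Phgdh log2 ratio of -0.25, far from the other 3 rats, the lowest of which was at 1.82. Its gap was 0.856 of the range of the group, above Dixon's 95% critical value for 4 samples. This was the one such case among 24 groups of a gene and a compound, and chance gives about 1 in 20.

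The array also held a probe of the UniGene cluster of Asns and one of the cluster of Fgf21 that carry neither gene's name and were left out of the comparisons. Under 1,2-dichlorobenzene the Asns cluster probe was higher than vehicle by 1.09 on the log2 scale (limma adjusted p = 3.92e-06). It was not called under hexachloroethane (0.86), 1,2,3-trichloropropane (0.84) or monuron (0.77), where Asns itself was called. The Fgf21 cluster probe was higher by 1.43 under 1,2,3-trichloropropane (limma adjusted p = 0.000546) and by 1.28 under 1,2-dichlorobenzene (limma adjusted p = 0.00107).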

How the results depend on the processing

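Of 336 means of the 4 genes under alternative settings, 304 kept their direction and side of the limits, 20 lost the call, 12 gained it and 0 turned their direction. The number of the 4 genes called against vehicle moved with median centring for hexachloroethane (1, against 2), monuron (0, against 1) and 1,2,3-trichloropropane (3, against 4), and with the scanner's log ratio (hexachloroethane 4, monuron 3) and the deposited series table (4 and 3). Without background subtraction it was 2 for 1,2,3-trichloropropane, 2 for 1,2-dichlorobenzene and 0 for monuron. A fit of hexachloroethane alone gave 1, and the mean over probes gave 0 for monuron and 3 for both 1,2,3-trichloropropane and 1,2-dichlorobenzene, against 4 each. With the other probe sequence the counts were 1, 2, 0 and 1 for hexachloroethane, 1,2,3-trichloropropane, monuron and 1,2-dichlorobenzene. Leaving out the rats of 1 number gave 2 to 4, 3 to 4 and 0 to 1 for hexachloroethane, 1,2,3-trichloropropane and 1-amino-2-methylanthraquinone. Against the other 5 compounds, the count for 1,2,3-trichloropropane was 0 with median centring, no background subtraction, the mean over probes or the other sequence, and 0 to 1 with 1 rat left out; for 1-amino-2-methylanthraquinone 0 without background subtraction or with the other sequence; for tetracycline hydrochloride 0 with median centring, 2 with the scanner ratio or the series table, and 1 without the rats numbered 2, where the gene called was Asns in place of Phgdh. With 1 rat left out it was 0 to 1 for monuron and 1 to 2 for 1,2-dichlorobenzene. The 16 called pairs became 10 without background subtraction, 17 with the replicate block and 11 to 15 with 1 rat left out; the replicate block changed none of the other counts. The class comparison called none of the 4 genes under any setting, and calls over all genes were counted for it in the main setting only.

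Over all genes, 106, 105, 245, 162, 184 and 33 were called for hexachloroethane, 1,2,3-trichloropropane, then 1-amino-2-methylanthraquinone, monuron, 1,2-dichlorobenzene and tetracycline hydrochloride. Median centring gave 651, 441, 1083, 471, 461 and 182, the scanner ratio 294, 284, 547, 307, 350 and 98, and the deposited log2 ratios of the series gave 297, 277, 534, 298, 344 and 111. No background subtraction gave 146, 119 and 19 for 1-amino-2-methylanthraquinone, 1,2-dichlorobenzene and tetracycline hydrochloride, and leaving out 1 rat gave 20 to 54 for the last. Median centring shifted the median of all genes to between -0.34 and -0.21, so that 3.69 to 13.7% of the calls were higher, against 32.4 to 59.2%. The scanner ratio moved that share to 38.8% and the series table to 38.4% for hexachloroethane (52.8%), and no background subtraction to 42.1% for tetracycline hydrochloride (54.5%). The causes were not tested.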
